A study of Mus musculus with 19 samples.

Results

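The genes described here are 9 hepatocyte enzymes of the urea cycle and of amino acid breakdown: Cps1, Otc, Ass1, Asl and Arg1, which form the cycle, and Gls2, Tat, Hal and Sds, which remove nitrogen from amino acids. They were chosen by name from what they are known to do, not from binding values, though earlier results of these data were known. They are 9 of the 22350 protein-coding genes annotated on the numbered chromosomes and X. Each gene was given a window of its annotated body with 20 kb on either side, in the NCBIM37 (mm9) mouse assembly, and every peak of YAP or TEAD that overlapped a window was collected. The windows covered 676.412 kb in all. Binding was measured by chromatin immunoprecipitation with sequencing (ChIP-seq) in livers of C57BL/6 mice, in 19 samples that fell into 6 groups. Control livers (WT) came from animals labelled ROSA26-rtTA-IRES-EGFP; WT, which ate doxycycline food for 7 days, and the induced livers came from animals labelled ROSA26-rtTA-IRES-EGFP; tetYAP, which ate it for 3 days (3 d) or 7 days (7 d). All animals thus carried the rtTA transgene and received doxycycline. The labels do not say whether the WT animals also carried Cre. According to the study's methods, an albumin-driven Cre directed rtTA, and through it an activated YAP allele, to hepatocytes. There were 3 replicates in each group, or 4 for TEAD at 7 d. The TEAD antibody, per the study's methods, was raised against TEAD4 and also recognised TEAD1 and TEAD3. Age was not given in the labels, and the peaks carry no measure of cell type, so the tissue label could not be checked against marker expression.

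The urea cycle turns ammonia, a toxic product of amino acid breakdown, into urea for excretion. Its enzymes are made mainly by periportal hepatocytes, those nearest the blood that arrives from the gut, whereas glutamine synthesis is kept to the cells around the central vein. YAP is a transcriptional coactivator that does not bind DNA itself and is carried to chromatin by TEAD proteins, and its activation in adult hepatocytes is known to bring loss of their mature functions. The comparison asked where TEAD and YAP lay around these genes before induction, after 3 d and after 7 d.

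The replicates of each group were merged before peaks were called, so each group is 1 list and no difference between lists has a replicate check or a test. The lists held 156 (WT), 110 (3 d) and 1478 (7 d) YAP peaks, and 5695, 36446 and 38984 TEAD peaks, from merged libraries of between 34260362 and 55032002 tags. The TEAD library of 7 d had 0.7 times as many tags as that of 3 d. Pileup, the number of sequenced fragments that cover a summit, depends on depth and on the fragment length that the caller used, so peaks were ranked by pileup only within their own list. A rank is given below as the percentage of the list at or above it, so that a small number is a strong peak. Fold enrichment is the pileup divided by the local background of the control library.

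No YAP peak of any list lay in any of the 9 windows. The shares of all protein-coding genes with a YAP peak in such a window were 0.139% in livers without tetYAP (WT), 0.192% at 3 d and 6.34% at 7 d, so a count of 0 of 9 was near the background in each list. TEAD was found around most of the genes after induction. In WT livers 2 of the 9 genes, Gls2 and Hal, had a TEAD peak in the window, where 25.4% of all genes had one. At 3 d 8 of the 9 had a TEAD peak, against 65.3% of all genes, and at 7 d all 9 had one, against 66.5%. The lone gene without a TEAD peak at 3 d was Otc. A TEAD peak in an induced list and none in WT livers was found for 7 of the 9, against 44.5% of all genes.

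As a group, the enzymes had more TEAD peaks per gene than the median gene in the induced lists, but not each of them did, and in WT livers their density was no higher than that of all genes. Their windows held 2 TEAD peaks without tetYAP, 70 at 3 d and 48 at 7 d. Per 100 kb of window this was 0.296, 10.3 and 7.10 peaks, whereas the windows of all protein-coding genes together held 0.332, 2.16 and 2.27. The median number of peaks per gene was 7 at 3 d and 5 at 7 d for the enzymes, and 1 in both lists for all genes. With all called peaks, the count of the enzymes was smaller at 7 d than at 3 d and that of the genome larger: the ratio of the 7 d to the 3 d count was 0.686 in the enzyme windows, 1.05 in all protein-coding windows and 1.07 over the whole lists. This order depended on the cutoff. It held with a −log10 p-value of at least 10, where the enzyme windows held 51 peaks at 3 d and 43 at 7 d. It turned with a fold enrichment of at least 5, where they held 30 and 41, a ratio of 1.37, against 1.51 in all protein-coding windows. That fold cut kept 21895 peaks of the whole 3 d list and 33410 of the 7 d list. Among the strongest 5695 peaks of each list the enzyme windows held 3 at 3 d and 3 at 7 d, beside 2 in WT livers. Of the 9 genes, 5 (Cps1, Ass1, Asl, Arg1 and Tat) had fewer TEAD peaks at 7 d than at 3 d, a change seen in 29.6% of the 15598 genes with a peak in either list. The other way, 3 of the 9 (Gls2, Hal and Otc) had more at 7 d, against 35% of those genes, and Sds had 3 peaks in both. These shares of all genes were not matched for the number of peaks per gene, which was higher for the enzymes. The 7 d library was the shallower one. After the pileups of 3 d were multiplied by 0.7 and peaks then under the lowest 7 d pileup of 16 were left out, 5 of the 9 genes had fewer peaks at 7 d, and 28.6% of genes with a peak in either list did. This step kept 35976 of the 36446 peaks of 3 d, and 67 of the 70 in the enzyme windows. It could thus change the counts little and does not settle the part of depth. Among peaks with a fold enrichment of at least 5 this number was 2 of 9, against 8.55% of genes with such a peak. Among peaks with a −log10 p-value of at least 10 it was 5 of 9, against 25.8%.

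**Figure D1:**
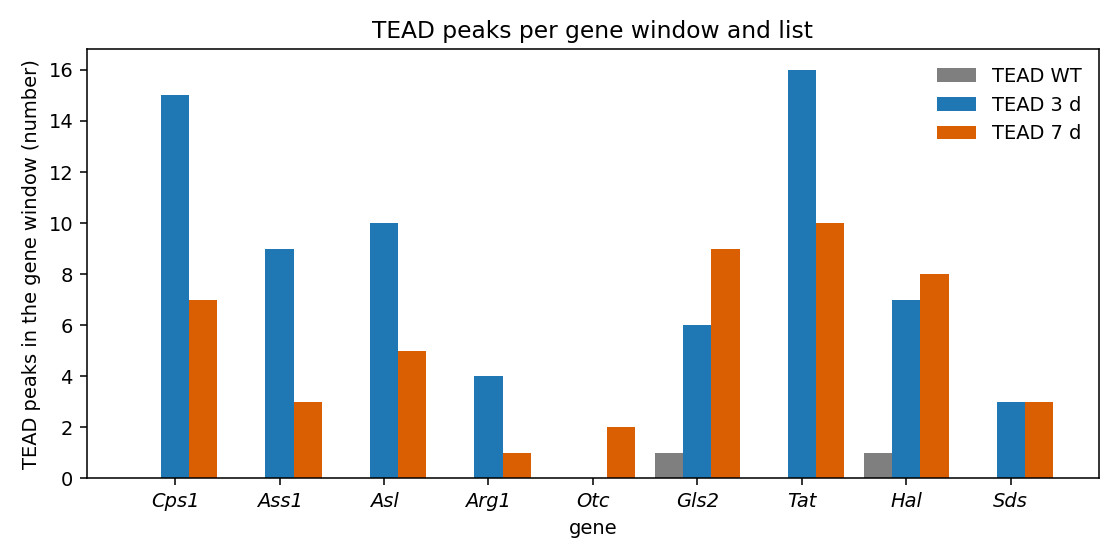
Number of TEAD peaks (vertical axis) in the window of each of the 9 enzymes (horizontal axis), with 1 bar for each of the WT, 3 d and 7 d lists. Tat (16 and 10) and Cps1 (15 and 7) had the most peaks at 3 d, the bars of 7 d were lower for 5 genes and higher for Gls2, Hal and Otc, and WT peaks were present for Gls2 and Hal alone.

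The first enzyme of the cycle, Cps1, joins ammonia and bicarbonate in the mitochondrion. Its gene lies at chr1:67169600-67277833 on the plus strand. It had no TEAD peak without tetYAP, 15 at 3 d and 7 at 7 d. At 3 d 99.2% of all genes had fewer peaks than Cps1, and at 7 d 91.7% did. The Cps1 window was long, at 148.234 kb, and per unit of length 93.6% and 73.6% of genes had a lower density. All 7 peaks of 7 d lay at sites that were also called at 3 d, and 8 sites of 3 d were not called at 7 d. The strongest peak at both times stood 9598 bp upstream of the start, between genes. Its pileup was 60 at 3 d and 92 at 7 d, its fold enrichment 9.85 and 21.7, and its rank moved from the top 17.2% to the top 8.78% of the list. An intronic peak about 23 kb into the gene had pileups of 55 and 64, fold enrichments of 7.59 and 14.6, and ranks in the top 20.6% and 17.4%. The promoter peak was weak by comparison. Its summit lay 58 bp (3 d) and 25 bp (7 d) upstream of the start, with pileups of 28 and 25 and ranks in the top 76.8% and 74.9%. Cps1 thus had fewer peaks in the later list, in which its strongest upstream site ranked higher. The nearest YAP peak of 7 d lay beyond the window, 30.264 kb from the gene body, between genes, and Cps1 was the nearest annotated start. Its pileup was 23 and its fold enrichment 5.02, with rank 1249 of 1478. TEAD was called at this YAP site in all 3 TEAD lists, with fold enrichments of 6.25 without tetYAP, 24.3 at 3 d and 32.5 at 7 d. It stood in the top 29.3%, 1.92% and 3.16% of those lists, so it was a stronger TEAD site than any in the Cps1 window. The 201 bp around the summits of these 3 sites at 7 d are shown. The intronic one was chosen after a motif search had found in it the letters described next. They are written from the plus strand of NCBIM37, and capitals mark the letters GGAATG, the core of the TEAD recognition sequence, or its reverse complement. The first is chr1:67159902-67160102, the second chr1:67192488-67192688 and the third chr1:67139105-67139305.
Cps1 TEAD site 9598 bp upstream: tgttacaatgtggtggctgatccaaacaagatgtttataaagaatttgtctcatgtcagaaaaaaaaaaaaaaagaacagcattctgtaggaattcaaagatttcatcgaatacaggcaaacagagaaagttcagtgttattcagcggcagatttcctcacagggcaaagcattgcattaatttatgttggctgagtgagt
Cps1 TEAD site 22988 bp downstream: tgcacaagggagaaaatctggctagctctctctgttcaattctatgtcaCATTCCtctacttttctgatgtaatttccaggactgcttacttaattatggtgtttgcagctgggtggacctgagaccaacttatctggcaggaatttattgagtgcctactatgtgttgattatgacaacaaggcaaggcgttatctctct
Cps1 YAP site 30395 bp upstream: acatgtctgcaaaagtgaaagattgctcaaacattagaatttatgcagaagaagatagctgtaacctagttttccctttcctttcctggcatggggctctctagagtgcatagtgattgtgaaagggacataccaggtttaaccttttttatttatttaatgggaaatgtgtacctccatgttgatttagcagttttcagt
Of these 3 stretches, the intronic one alone held the 6 letters, once, and it had been chosen for holding them. The strongest site in the window and the YAP site held none within 100 bp of the summit, and the YAP site held the C/EBP letters described below once.

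The next step of the cycle, the joining of carbamoyl phosphate to ornithine, is catalysed by Otc. Its gene, at chrX:9829431-9898150 on the plus strand, had the sparsest binding of the 9. No TEAD peak was called in WT livers or at 3 d, and 2 were called at 7 d. The first covered the start, with its summit 144 bp downstream of it in a coding exon, a pileup of 29, a fold enrichment of 6.83 and a rank in the top 60.4%. The second was intronic, 29226 bp from the start, with a pileup of 36, a fold enrichment of 8.48 and a rank in the top 43.9%. Both were of middling rank. Otc was also the gene farthest from a YAP peak of 7 d, at 2044.7 kb.

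Ass1 and Asl carry out the argininosuccinate steps, which bring in the second nitrogen of urea from aspartate. Ass1, at chr2:31325727-31376192 on the plus strand, had 0 TEAD peaks without tetYAP, 9 at 3 d and 3 at 7 d. At 3 d its strongest peak was intronic, 7750 bp from the start, with a pileup of 45, a fold enrichment of 7.39 and a rank in the top 30.7%. No peak was called there at 7 d. The Ass1 promoter peak of 3 d, with a summit 180 bp upstream, had a pileup of 25 and a rank in the top 90.1%, and none was called at 7 d. The strongest peak at 7 d, with a pileup of 28, lay beyond the end of the gene, 60125 bp from its start. Of the 10 Ass1 sites, 7 were called only at 3 d, 1 only at 7 d, and 2 in both. At 3 d the peaks 16400, 10742 and 9692 bp upstream lay inside Hmcn2, a neighbour that overlaps the Ass1 window, and closest to its starts. The first of them was 1 of the 2 shared sites, and the others were called only at 3 d.

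Asl, at chr5:130487128-130501002 on the minus strand, had 0, 10 and 5 TEAD peaks. At 3 d 99.2% of all genes had a lower density of peaks, and at 7 d 91.3% did. Many of these peaks belong by position to Crcp, which starts next to Asl and runs the other way. The strongest peak of 3 d, with a pileup of 38 and a fold enrichment of 5.86, was in a Crcp intron, 6772 bp upstream of the Asl start. At 7 d the strongest peak, with a pileup of 38, a fold enrichment of 7.27 and a rank in the top 40.5%, was inside Asl, 1209 bp downstream of the outermost start and 202 bp downstream of another annotated start. At 3 d this site had a pileup of 31 and a rank in the top 63.9%, and a second peak in the same promoter interval, 1847 bp downstream of the outermost start, had a pileup of 32. The Asl promoter call at both times rested on that inner start, since no peak reached the promoter of the outermost one.

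The last enzyme, Arg1, splits arginine into urea and ornithine. Its gene is at chr10:24635014-24647276 on the minus strand. TEAD peaks numbered 0 without tetYAP, 4 at 3 d and 1 at 7 d. The peak that remained was at the promoter, with its summit 56 bp upstream of the start at 3 d and 25 bp downstream at 7 d. Its pileup was 47 and then 34, its fold enrichment 7.72 and 8.01, and its rank in the top 28.1% and then 47.9%. The other 3 peaks of 3 d were weaker, with pileups of 23, 33 and 38, and 2 of them lay in the neighbouring gene Med23. Arg1 was the enzyme nearest to a YAP peak of 7 d. That peak was 21.015 kb from the gene body, just outside the window, between genes, with Arg1 as its nearest start, 21177 bp away. Its pileup was 33 and its fold enrichment 5.75, with rank 419 of 1478. TEAD was called there in each list, with fold enrichments of 3.72 without tetYAP, 14.5 at 3 d and 18.7 at 7 d. Its pileups were 36, 94 and 99, in the top 62.7%, 6.48% and 7.52% of those lists. At 3 d and 7 d this distal site was thus a stronger TEAD peak than the Arg1 promoter. Its sequence around the YAP summit, chr10:24668353-24668553 on the plus strand, is shown because it is the YAP-bound stretch closest to any of the 9 genes.
Arg1 YAP site 21177 bp upstream: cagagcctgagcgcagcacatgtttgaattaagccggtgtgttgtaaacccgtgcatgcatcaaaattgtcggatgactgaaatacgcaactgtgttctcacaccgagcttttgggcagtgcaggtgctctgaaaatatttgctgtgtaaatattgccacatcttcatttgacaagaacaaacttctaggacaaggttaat
The TEAD letters were not in these 201 bp, nor were those of the other motifs searched below.

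Gls2 encodes liver glutaminase, which frees the ammonia that Cps1 uses. It lies at chr10:127631513-127647060 on the plus strand. Unlike those of the cycle genes with a TEAD peak at 3 d, its window had more peaks at 7 d: 1 without tetYAP, 6 at 3 d and 9 at 7 d. Per unit of length, 94.4% of genes at 3 d and 98.5% at 7 d had a lower density. In both induced lists most peaks of the window lay nearest to a start of the neighbours Rbms2 or Spryd4. The count and the density thus describe the window and not Gls2 alone. The WT peak, with a pileup of 39 and a fold enrichment of 5.18, was at the promoter of Spryd4, 62 bp from its start, so no WT peak lay at Gls2 itself. An intronic peak dominated at both times. Its summit was 7468 bp downstream of the outermost start at 3 d, with a pileup of 89, a fold enrichment of 13.5 and a rank in the top 7.36%. At 7 d the summit was 7447 bp downstream, with a pileup of 94, a fold enrichment of 20.4 and a rank in the top 8.43%. This was the strongest TEAD peak at a promoter of any of the 9 genes, but the promoter is that of an inner start 1352 bp further on. At the outermost start a peak was called at 7 d only, 852 bp downstream, with a pileup of 23 and a rank in the top 83.2%. Another promoter peak, also of 7 d only, lay 6 bp from a different inner start and had a pileup of 32. A further site 7.7 kb upstream of Gls2 had a pileup of 50 at both times and fold enrichments of 8.21 and 11.8. It lay nearer to a start of the neighbour Rbms2, at 6458 bp (3 d) and 6471 bp (7 d). Both sequences are given from the plus strand, the intronic one at chr10:127638860-127639060 and the upstream one at chr10:127623724-127623924, to set the strongest site beside the site richest in TEAD letters.
Gls2 TEAD site 7447 bp downstream: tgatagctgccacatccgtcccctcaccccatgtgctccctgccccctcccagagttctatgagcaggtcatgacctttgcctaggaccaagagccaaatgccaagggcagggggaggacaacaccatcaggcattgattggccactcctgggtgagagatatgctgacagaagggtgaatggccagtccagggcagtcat
Gls2 TEAD site 7689 bp upstream: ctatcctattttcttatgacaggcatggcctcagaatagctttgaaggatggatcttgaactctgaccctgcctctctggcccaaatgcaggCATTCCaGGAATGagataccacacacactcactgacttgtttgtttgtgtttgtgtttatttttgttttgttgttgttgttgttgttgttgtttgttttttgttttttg
The upstream site held the letters on both strands, 1 base apart, close to its summit. The much stronger intronic site held them on neither. The nearest YAP peak of 7 d was 43.682 kb from Gls2, at the promoter of Apon, with a pileup of 28 and a fold enrichment of 6.11. TEAD was called there in all 3 lists, in the top 7.95% (WT), 1.92% (3 d) and 2.02% (7 d). Its pileups of 73, 148 and 160 are not comparable between lists.

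Tat, which starts tyrosine breakdown and is a classic marker of mature hepatocytes, was the gene with the densest TEAD binding. It lies at chr8:112514337-112523703 on the plus strand, in a window of 49.367 kb. It had 0 TEAD peaks without tetYAP, 16 at 3 d and 10 at 7 d, and 99.96% of all genes at 3 d and 99.4% at 7 d had fewer peaks per unit of length. None of these peaks was in the top 10% of its list. At 3 d pileups ran from 24 to 45, with the highest at a site 6206 bp upstream, fold enrichment 7.39, in the top 30.7%. At 7 d the same site had a pileup of 23 and stood in the top 83.2%, and the highest was a site 3876 bp upstream with a pileup of 39 and a rank in the top 39.0% by pileup, but in the top 67.9% by its fold enrichment of 6.04. That site had a pileup of 29 at 3 d, in the top 72.5%, so the order by pileup of the sites upstream of Tat changed between the lists. The promoter peak, 320 bp upstream at 3 d and 316 bp at 7 d, had pileups of 44 and 36, fold enrichments of 7.22 and 8.48, and ranks in the top 32.1% and 43.9%. By fold enrichment it was the strongest Tat peak of 7 d. A second peak of 3 d, 1070 bp downstream, also reached the promoter interval and was not called at 7 d. Of the 17 Tat sites, 9 were called at both times, 7 only at 3 d and 1 only at 7 d.

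Hal removes ammonia from histidine in the first step of its breakdown, and a later enzyme of that path is Amdhd1, whose gene lies beside Hal in the genome. Hal, at chr10:92951513-92982049 on the plus strand, had 1, 7 and 8 TEAD peaks. The strongest in each list was inside Amdhd1 and not Hal. Its pileup was 38 without tetYAP, 92 at 3 d and 79 at 7 d, with fold enrichments of 5.05, 15.0 and 18.5 and ranks in the top 54.0%, 6.84% and 11.9%. Within Hal itself the strongest peak of 3 d was in a coding exon, 27442 bp from the start, with a pileup of 65 and a rank in the top 14.7%. At 7 d its pileup was 46 and its rank in the top 30.2%, and a peak in an intron, 9131 bp from the start, was the strongest in the gene, with a pileup of 58, a fold enrichment of 13.2 and a rank in the top 20.7%. That intronic peak had a pileup of 53 and a rank in the top 22.3% at 3 d. The peak at the Hal start was weak at both times, with pileups of 27 and 24 and ranks in the top 81.5% and 79.0%. A second promoter peak of 3 d, 1893 bp upstream, had a pileup of 29. The intronic stretch, the strongest site inside Hal at 7 d, is shown, chr10:92960544-92960744 on the plus strand. It was chosen after the motif search because it held the TEAD letters.
Hal TEAD site 9131 bp downstream: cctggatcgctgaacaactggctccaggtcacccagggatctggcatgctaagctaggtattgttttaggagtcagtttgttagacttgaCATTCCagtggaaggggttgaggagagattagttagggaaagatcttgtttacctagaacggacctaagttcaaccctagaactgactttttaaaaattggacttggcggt
The letters for which it was chosen occurred once, near the middle.

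Sds, which turns serine into pyruvate and ammonia, had no TEAD peak at its own promoter or in its body in any list. The gene is at chr5:120926540-120933941 on the plus strand, and its window held 0, 3 and 3 peaks. All 3 peaks of 3 d were at promoters of its paralogue and neighbour Sdsl, with pileups of 27, 34 and 38. At 7 d 2 peaks were at Sdsl promoters, with pileups of 23 and 26, and the third, in an intron of Plbd2, had a pileup of 35, in the top 45.8% by pileup and the top 89.0% by fold enrichment. The peaks counted for Sds thus lay nearer to other genes.

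**Figure D2:**
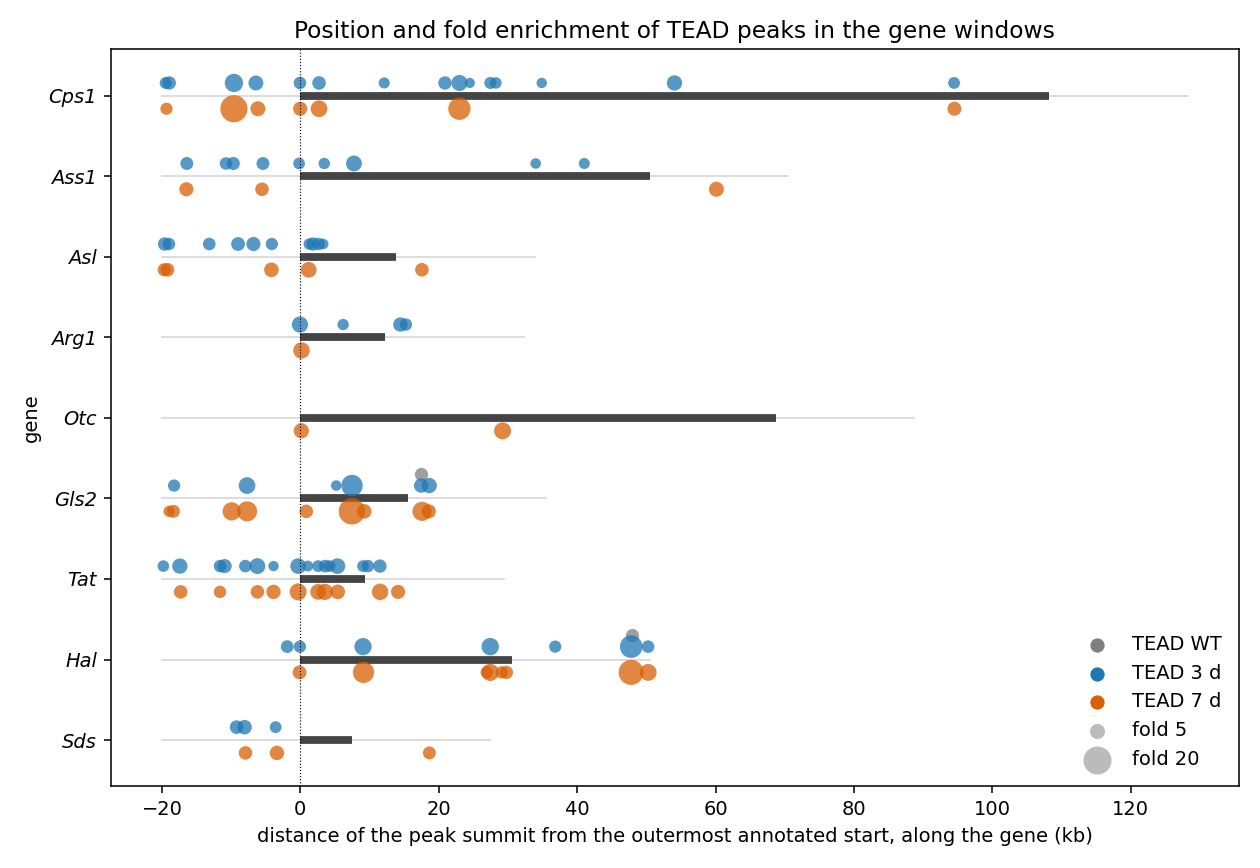
Position of every TEAD peak of the 9 windows, as the distance in kb of its summit from the outermost annotated start of the gene (horizontal axis, negative values upstream), with 1 line per gene, a dark bar for the gene body and a thin line for the window. Symbol area is proportional to fold enrichment. WT peaks are grey, 3 d peaks blue and 7 d peaks orange. The largest symbols are the Cps1 site 9598 bp upstream, the intronic Gls2 site and the site inside Amdhd1 in the Hal window.

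Promoter binding was counted as a peak between 2000 bp upstream and 1000 bp downstream of any annotated start. No member had a TEAD promoter peak in WT livers, where 8.7% of all genes had one. At 3 d 7 of the 9 had one (not Otc and Sds), against 38.9% of genes, and at 7 d 7 had one (not Ass1 and Sds), against 37.6%. There were 6 with a promoter peak in both induced lists, against 33.7%, and 8 with one at either time and none in WT livers, against 34.1%. With each TEAD list limited to its strongest 5695 peaks, 1 enzyme had a TEAD promoter peak at 3 d and 1 at 7 d. None of the 9 had a YAP promoter peak in any list, where 0.0358% (WT), 0.0716% (3 d) and 1.04% (7 d) of all genes had one. With the outermost start alone the counts were 5 at 3 d and 6 at 7 d, where 35.5% and 34% of genes had such a peak, because Asl then had none and Gls2 had one only at 7 d. At the outermost start the promoter peaks were of middling or low rank, from the top 28.1% (Arg1) to 90.1% (Ass1) at 3 d.

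Most TEAD peaks in the windows were not strong ones. The median pileup was 32 at 3 d and 29 at 7 d, below the medians of 36 and 33 over the whole lists, and the median fold enrichment was 4.685 against 5.44 at 3 d and 6.185 against 7.3 at 7 d. At each time 2 of the peaks were in the top 10% of their list, those of Gls2 and Hal at 3 d and those of Cps1 and Gls2 at 7 d. The top 50% of the list held 25 of the 70 peaks of 3 d and 20 of the 48 of 7 d. By position, 10 of the 70 peaks of 3 d were at promoters of the enzymes, 9 at promoters of neighbours, 36 elsewhere in gene bodies and 15 between genes. At 7 d these numbers were 9, 9, 16 and 14, so the smaller count at 7 d was mainly a smaller count inside gene bodies. An enzyme had the nearest annotated start for 49 of the 70 peaks and for 31 of the 48.

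To follow sites through time, peaks of the 3 TEAD lists that overlapped by at least 1 bp were joined into 83 sites. Of these, 2 (2.41%) were called in all 3 lists, 33 (39.8%) at 3 d and 7 d, 35 (42.2%) only at 3 d and 13 (15.7%) only at 7 d. Over the 38648 sites in the windows of all protein-coding genes the shares were 11.5%, 46.9%, 18.6% and 22.5%. The share called only at 3 d was thus larger around the enzymes, and the share called in all 3 lists smaller, in a comparison without a test. The sites called only at 3 d were spread over the windows of 8 of the genes. These held 8 for Cps1, 7 each for Ass1 and Tat, 6 for Asl, 3 for Arg1, 2 for Hal and 1 each for Gls2 and Sds. Some of them lay nearer to neighbours. They were of low rank, with a median fold enrichment of 4.55 and a median rank in the top 63.9%, against 4.3 and 76.8% for such sites in all windows. The strongest of them, in a Cps1 intron 54068 bp from the start, had a pileup of 50 and stood in the top 24.8%. For the 13 sites called only at 7 d the median fold enrichment was 5.42 and the median rank in the top 66.9%, against 5.89 and 70.7% in all windows. The Gls2 window held 4 of them, some nearer to a start of Rbms2. With a fold enrichment of at least 5 required, 11 sites were called only at 3 d and 22 only at 7 d, so this order turned. With a −log10 p-value of at least 10 it held, with 21 sites only at 3 d and 13 only at 7 d.

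**Figure D3:**
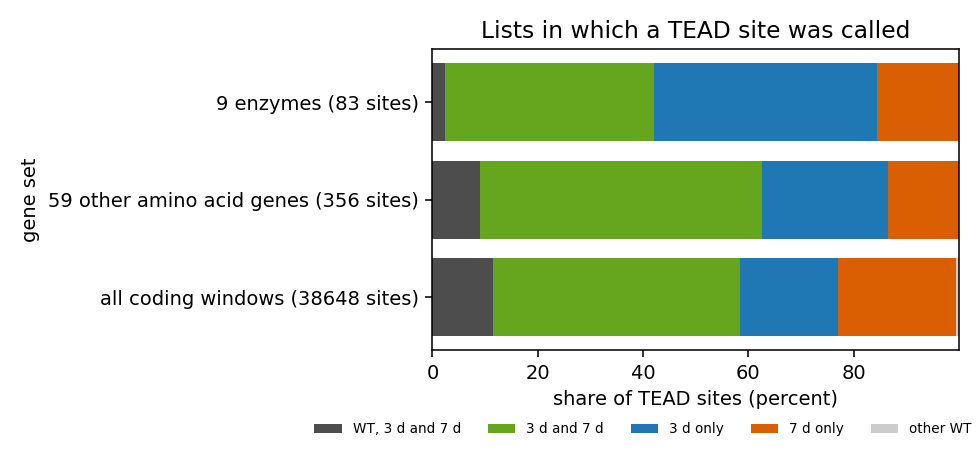
Share of TEAD sites (horizontal axis, percent) by the lists that called them, for the 9 enzymes, for 59 other genes of amino acid and nitrogen metabolism and for all protein-coding windows. The blue part, sites called only at 3 d, is 42.2% for the enzymes, 23.9% for the other amino acid genes and 18.6% for all windows, and other combinations with WT are a sliver at the right.

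At the 35 sites called at both 3 d and 7 d, rank changed in both directions. The rank was higher at 7 d for 16 of them (45.7%), against 42.8% of the 22574 such sites in all windows. Fold enrichment was higher at 7 d for 27 (77.1%), against 84.5%, and its median was 5.27 at 3 d and 6.36 at 7 d. Fold enrichment was higher at 7 d at most sites of the genome, so this was not particular to the enzymes. The sites that moved up included the Cps1 site 9598 bp upstream, and those that moved down included the Tat site 6206 bp upstream and the Arg1 promoter.

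**Figure D4:**
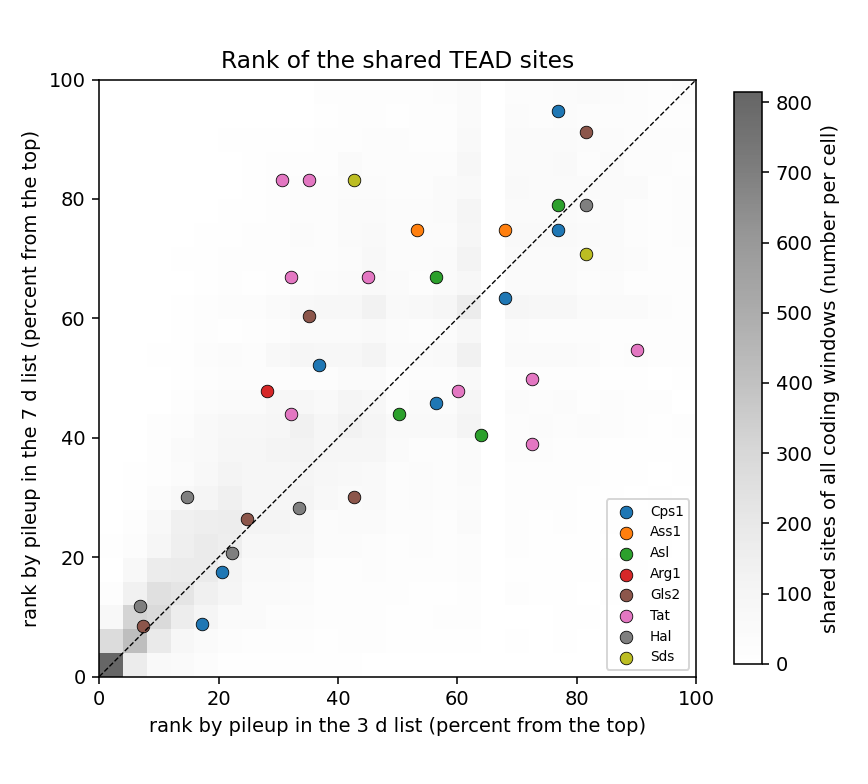
Rank by pileup at 3 d (horizontal axis) and at 7 d (vertical axis) of the 35 TEAD sites called in both lists, as percent from the top, coloured by gene. Grey squares count the 22574 shared sites of all protein-coding windows, and the dashed line marks equal rank. Sites below the line ranked higher at 7 d (16 of 35). The Tat sites lie farthest from the line on both sides, and 1 point, the intronic Gls2 site, is in the top 10% of both lists.

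The distance to YAP was measured for all 9 genes, since none had a YAP peak in its window. The distance from the gene body to the nearest YAP peak of 7 d was 21.015 kb for Arg1, 30.264 kb for Cps1, 43.682 kb for Gls2 and 144 kb for Asl. It was 405.774 kb for Tat, 916 kb for Ass1, 1866 kb for Hal, 2043 kb for Sds and 2044.7 kb for Otc. The median of 405.774 kb was close to the 476.743 kb over all protein-coding genes. All 9 of these YAP peaks overlapped a TEAD peak of 7 d, as did 95.2% of the whole YAP list. The count of enzymes without YAP was therefore set by the window for 3 of them: with 50 kb on either side, Arg1, Cps1 and Gls2 each had 1 YAP peak at 7 d, and 10.8% of all genes had at least 1 in a window of that size. With a TEAD peak at 3 d or 7 d and no YAP peak at 7 d in the 20 kb window, the 9 enzymes shared a state that held for 63.5% of all genes.

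Other genes of amino acid and nitrogen metabolism were taken as a wider list of 59, among them carriers of the cycle, transaminases and the enzymes that break down tryptophan, phenylalanine, histidine, the branched chain amino acids and proline. In WT livers 26 of the 59 had a TEAD peak in the window, at 3 d 56 and at 7 d 58, where the shares of all genes were 25.4%, 65.3% and 66.5%. The median number of TEAD peaks was 4 in both induced lists, between that of the 9 enzymes and that of all genes. The ratio of the 7 d to the 3 d count was 0.885, also between the ratios of the enzymes and of all genes. Fewer peaks at 7 d were seen for 27 of 58 and more for 16, against 29.6% and 35% of all genes with a peak. Promoter peaks were found for 12, 50 and 45 of them in the WT, 3 d and 7 d lists, against 8.7%, 38.9% and 37.6% of all genes. Of their 356 sites, 85 (23.9%) were called only at 3 d and 48 (13.5%) only at 7 d. Members of both lists that lie side by side, Hal with Amdhd1 and Sds with Sdsl, share peaks.

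YAP peaks of 7 d lay in the windows of 4 of the 59 genes, Kmo, Aass, Bckdk and Gstz1, near the background of 6.34%. In Kmo, an enzyme of tryptophan breakdown, the peak was in a coding exon, with a pileup of 33 and a fold enrichment of 7.2. In Aass, which starts lysine breakdown, it was intronic, with a pileup of 23 and a fold enrichment of 5.02. The peak counted for Bckdk, the kinase that restrains branched chain breakdown, was at the promoter of Vkorc1, 133 bp from its start, with a pileup of 33. Gstz1, an enzyme of tyrosine breakdown downstream of Tat, had 2 YAP peaks in its window, with pileups of 25 and 22, the first 6000 bp upstream of its start. All 5 of these peaks overlapped a TEAD peak of 7 d, like 95.2% of the YAP list, and none was at a promoter of the 59 genes. Only Aldh18a1, which makes the proline and ornithine precursor, had no peak of any list, a state of 30.2% of all genes and of none of the 9 enzymes.

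Sequence at the summits was searched for 5 short motifs on both strands, within 100 bp on either side: GGAATG for TEAD, CAAAGTC for HNF4, TGTTTAC for FOXA, TTGCNNAA for C/EBP and TGANTCA for AP-1. None of them is contained in another. HNF4, FOXA and C/EBP factors are the main regulators of hepatocyte genes, and AP-1 often accompanies TEAD. At 7 d the TEAD letters were at 15 of the 48 peaks in the enzyme windows (31.2%), and at 35.2% of the whole list. At 3 d they were at 17 of 70 (24.3%), against 30.4% of the list. By comparison, 59% of YAP peaks of 7 d and 48.6% of TEAD peaks of WT livers held them. No test was made of these differences. At 7 d the HNF4 letters were at 4 of the 48 peaks (8.33%, list 6.33%), FOXA at 5 (10.4%, list 5.76%), C/EBP at 9 (18.8%, list 14.9%) and AP-1 at 4 (8.33%, list 8.71%). At 3 d the HNF4 letters were at 6 of the 70 peaks (8.57%, list 6.59%), FOXA at 4 (5.71%, list 5.54%), C/EBP at 8 (11.4%, list 14.7%) and AP-1 at 5 (7.14%, list 6.92%). The higher FOXA and C/EBP shares of 7 d were thus not seen at 3 d, and all of these are small counts. The Arg1 promoter held the HNF4 letters around its 7 d summit but not around its 3 d summit, which lay elsewhere in the same site. The Hal start held the C/EBP letters at both times, and the Cps1 and Tat promoters held none of the 5.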

How the data were processed

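ChIP-seq of mouse liver was used as 6 lists of peaks. The authors masked low-quality bases, aligned reads to mm9 with BWA 0.6.2, merged the replicates of each group, removed duplicates and called peaks with MACS2 2.0.9. Per the file headers, the p-value cutoff was 1e-05 and every list was set against the same control of 167176362 tags, which the study's methods credit to published data. The deposited pileup is a signal (fragments over the summit), the deposited fold enrichment is a ratio of pileup to local background, and the deposited −log10 p-value and −log10 q-value are those of the caller. The fragment length per the file headers was 250 bp for YAP, 400 bp for TEAD in WT livers, 207 bp at 3 d and 206 bp at 7 d. The longer setting in WT livers counts more fragments per position in both the pileup and the background.

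Peaks were matched to GENCODE genes of NCBIM37, the assembly that mm9 names, and every peak end on the numbered chromosomes and X lay within its chromosome. Windows of 20 kb, promoter intervals of 2000 and 1000 bp, overlaps of at least 1 bp and ranks within a list were computed with Python 3.11.15, pandas 2.3.3 and NumPy 2.4.6, and the steps were checked on simulated peaks. No test was run, since merging left no replicate spread. The 9 enzymes and the list of 59 genes were chosen with earlier results of these data known. Peaks named were the strongest of each gene and list, every promoter peak and the nearest YAP peaks. Others, the comparison of counts at 7 d with 3 d, and all printed sequences except the intronic Gls2 site, were chosen after values were seen. Of these sequences, the Cps1 intron, the site upstream of Gls2 and the Hal intron were chosen for holding the TEAD letters. Sequences come from the NCBIM37 genome.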

Additional observations from a re-analysis of the deposited data

How the results depend on the processing

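The counts of 0 YAP peaks depended on the window: with 50 kb on either side the 7 d list gave 3 peaks at 3 enzymes, and all 3 overlapped TEAD. TEAD peaks of WT livers numbered 1 at 1 enzyme with 10 kb and 5 at 4 enzymes with 50 kb. With a fold enrichment of at least 5, the 3 d list gave 30 peaks and 4 enzymes with a promoter peak, and the 7 d list gave 41 peaks, so the order of the counts turned. Sites called at 3 d and 7 d then numbered 19, those only at 3 d 11 and those only at 7 d 22, and 2 enzymes had fewer peaks at 7 d. With a −log10 p-value of at least 10, 21 sites were called only at 3 d. With each TEAD list limited to its strongest 5695 peaks, 3 peaks at 2 enzymes were left at 3 d and 3 peaks at 3 enzymes at 7 d, each with 1 promoter. The other 100 recomputed counts stayed within 1.5 times the value reported. Many of them were counts of 0, which a stricter cutoff or a smaller window cannot raise, so that number overstates how stable the results were. Ranking by fold enrichment or p-value in place of pileup moved ranks by a median of 2.21 percentage points and at most 43.2, and by over 1.5 times for the Tat and Sds peaks of 7 d. The promoter of the outermost start, the depth scaling and the count of enzymes with fewer peaks at 7 d were added after the data were seen. No paired analysis was possible because each group's libraries had been pooled ahead of peak calling, and leaving out single replicates was not run for the same reason. Depth limits the weakest peaks, and a window without a peak shows only that none passed the caller's cutoff at that depth.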
